A study of Mus musculus with 4 samples.

Results

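The 35 genes described here encode proteins that fold secretory cargo in the endoplasmic reticulum (ER), remove what fails to fold, carry cargo into and out of the ER, or sense its load. They were taken by symbol from a list drawn up with earlier results of these data known, and all 35 were found among the 32285 genes of the deposited matrices. By role they are 17 folding genes, 10 genes of ER-associated degradation, 5 genes of translocation and transport, and 3 grouped here as sensors. That last group holds the sensor genes Ern1 and Atf6, and Xbp1, which encodes a transcription factor and not a sensor. Islets of wild-type male C57BL6J mice aged 8 weeks were kept for 24 h in 1 mM imeglimin at 11.1 mM glucose, in DMSO vehicle at 11.1 mM glucose, in 1 mM imeglimin at 3.9 mM glucose, or in DMSO vehicle at 3.9 mM glucose, and were then dispersed into single cells. Imeglimin is an oral drug for type 2 diabetes. Each condition was 1 library of 3′ transcript tags, and how many mice it came from is not given in the sources used here.

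A beta cell makes insulin at a high rate, so its ER carries a heavy load of folding work. When unfolded protein builds up, the sensors IRE1 (gene Ern1), ATF6 and PERK start the unfolded protein response. IRE1 splices Xbp1 RNA, cleaved ATF6 moves to the nucleus, and PERK slows translation. The XBP1 and ATF6 proteins switch on chaperone and degradation genes, many through the ER stress element (ERSE) in their promoters, whereas degradation pulls misfolded chains back through the ER membrane to the proteasome.

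The promoters carry that element in a form that can be read directly. RefSeq promoter windows (250 bases before to 50 after the annotated start, build GRCm38.p6) were found for 30 of the 35 genes, Ero1lb through its synonym Ero1b. ERSE was searched as CCAAT and CCACG with 9 bases of any kind between them, and ERSE-II as ATTGG and CCACG with 1 base of any kind between them, on both strands. ERSE was present in 10 of the 30 members and in 0.137% of all 27025 genes with a window, and ERSE-II in 2 of the 30 members and 0.0444% of those genes. By role, 9 of 15 folding genes and 3 of 9 degradation genes held either form, and none of the 4 transport and 2 sensor genes with a window did. The core TGACGTG of another unfolded protein response element was in Hspa5 and Sec24d, 2 of the 30 members, and in 2.22% of all genes with a window. The amino acid response element, TGATG and AA with 1 base of any kind between them, was in Herpud1, 1 of the 30 members, and in 4.51% of all genes with a window. A match is a description and not a bound site. Many chaperone and degradation genes are known to be switched on through ERSE, so its higher share among the members is not an independent result. The sites below, with the element in capitals and 5 bases on each side, are printed because these genes recur in the values that follow. Each is read 5′ to 3′ on the strand of the gene, so an element in the reverse direction starts with CGTGG.
Hspa5, chr2:34772020-34772048, plus strand: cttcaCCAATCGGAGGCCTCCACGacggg
Hsp90b1, chr10:86705633-86705661, minus strand: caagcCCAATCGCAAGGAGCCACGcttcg
Hsp90b1, second element, chr10:86705528-86705556, minus strand: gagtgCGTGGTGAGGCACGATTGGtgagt
Calr, chr8:84847070-84847098, minus strand: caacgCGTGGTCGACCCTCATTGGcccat
Pdia6, chr12:17266486-17266514, plus strand: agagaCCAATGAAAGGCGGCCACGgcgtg
Creld2, chr15:88819515-88819543, plus strand: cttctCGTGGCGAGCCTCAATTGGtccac
Ero1lb, chr13:12565677-12565705, plus strand: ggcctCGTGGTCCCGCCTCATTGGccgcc
Derl3, chr10:75893237-75893265, plus strand: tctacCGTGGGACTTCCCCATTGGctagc
Syvn1, chr19:6046527-6046555, plus strand: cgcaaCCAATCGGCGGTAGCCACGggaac
Herpud1 (ERSE-II), chr8:94386372-94386392, plus strand: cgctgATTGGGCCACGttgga

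Libraries held 91245564 to 106092232 UMIs, where a UMI is 1 counted RNA molecule, and the kept cells had median depths of 8832 to 12035 UMIs. Beta-like cells numbered 5464 under imeglimin and 4934 under vehicle at 11.1 mM glucose, and 4403 under imeglimin and 4625 under vehicle at 3.9 mM glucose. Cells of clusters that could not be named were left out. They made up 7.24% of cells under imeglimin and 8.29% under vehicle at 11.1 mM glucose. At 3.9 mM glucose they made up 19.1% under imeglimin, with a median of 2482 UMIs, and 12.3% under vehicle. The part of this loss in the ratios below was not tested. Any pair of libraries shared 15 to 24 cell barcodes. The 4 largest clusters that 1 library fills took 95.4% of their cells from imeglimin at 11.1 mM, 89.9% from vehicle at 11.1 mM, 91.9% from imeglimin at 3.9 mM and 94.7% from vehicle at 3.9 mM glucose, so cell state and library cannot be told apart. The 9 beta-cell markers, insulin included, summed to 383624 CPM under imeglimin and 437843 CPM under vehicle at 11.1 mM glucose, and to 255996 CPM under imeglimin and 173399 CPM under vehicle at 3.9 mM glucose, and the part of this shift in the ratios below was not tested. All 11 acinar markers had UMIs in beta-like cells of every library, summing to 7.28 CPM under imeglimin and 17.2 CPM under vehicle at 11.1 mM glucose, and to 12.7 CPM under imeglimin and 36.1 CPM under vehicle at 3.9 mM glucose. Levels are given as CPM, the summed UMIs of a class brought to a common library total with TMM scaling. With 1 library per condition there is no replicate and no test between conditions. Intervals on a ratio are 95% and cover counting error only, and 1.5-fold is used as a measure of size.

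Among folding genes at 11.1 mM glucose, Hspa5, Creld2, Sdf2l1, Manf and Dnajb9 were at least 1.5-fold higher under imeglimin, and the oxidase Ero1lb was at least 1.5-fold lower. Of 34 members compared, 7 were at least 1.5-fold higher and 1 was at least 1.5-fold lower, against 5.81% of all 5643 genes compared higher and 4.25% lower. The members' median log2 ratio was 0.32, and that of all genes was 0.12. By role, 5 of 17 folding genes were higher and 1 lower (median 0.42), 2 of 9 degradation genes were higher and 0 lower (median 0.31), and 0 of 5 transport genes (median -0.01) and 0 of 3 sensors (median 0.48) reached that size. The count of higher members was 2 on a scale without hormone and mitochondrial genes, where the folding median was 0.22 and that of transport genes -0.21. It was 3 without the beta-like cluster led by Ero1l and Bnip3, which held 2146 imeglimin and 902 vehicle cells. Shares of all genes in those settings are not set beside these counts.

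Hspa5, the ER's main Hsp70 chaperone (BiP), had 1830 CPM under imeglimin and 1124 CPM under vehicle at 11.1 mM glucose, and 2062 CPM under imeglimin and 1929 CPM under vehicle at 3.9 mM glucose. The vehicle library at 11.1 mM glucose was the low one, and the other 3 lay between 1830 and 2062 CPM. Its log2 ratio of imeglimin to vehicle was 0.70 (interval 0.69 to 0.72) at 11.1 mM and 0.10 (0.08 to 0.11) at 3.9 mM glucose. Within the cluster led by Ero1l and Bnip3 it had 1894 CPM under imeglimin and 1336 CPM under vehicle at 11.1 mM glucose, on plain CPM, and within the cluster led by Slc2a2 and Mafa 1584 CPM in 386 imeglimin cells and 906 CPM in 3623 vehicle cells. Hsp90b1, the ER Hsp90 chaperone GRP94, had 1702 CPM under imeglimin and 1170 CPM under vehicle at 11.1 mM glucose, and 2326 CPM under imeglimin and 1277 CPM under vehicle at 3.9 mM glucose. Both imeglimin libraries stood above both vehicle libraries, with log2 ratios of 0.54 and 0.87.

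Creld2, an ER protein induced by the unfolded protein response, had 152 CPM under imeglimin and 88.1 CPM under vehicle at 11.1 mM glucose, and 216 CPM under imeglimin and 103 CPM under vehicle at 3.9 mM glucose. Its log2 ratios were 0.79 and 1.07, so imeglimin libraries were above vehicle libraries at each glucose level. Sdf2l1, a partner of the ER DnaJ proteins, had 486 CPM under imeglimin and 299 CPM under vehicle at 11.1 mM glucose, and 331 CPM under imeglimin and 200 CPM under vehicle at 3.9 mM glucose, which gave log2 ratios of 0.70 and 0.72. Manf, a stress-induced ER factor, had 1099 CPM under imeglimin and 717 CPM under vehicle at 11.1 mM glucose, and 780 CPM under imeglimin and 546 CPM under vehicle at 3.9 mM glucose. Dnajb9, a DnaJ cofactor of BiP, had 495 CPM under imeglimin and 326 CPM under vehicle at 11.1 mM glucose, and 267 CPM under imeglimin and 288 CPM under vehicle at 3.9 mM glucose, so its direction differed between the glucose levels (log2 0.60 and -0.11).

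Ero1lb, an ER oxidase that recharges protein disulfide isomerases, went the other way at 11.1 mM glucose. It had 351 CPM under imeglimin and 642 CPM under vehicle at 11.1 mM glucose, and 221 CPM under imeglimin and 225 CPM under vehicle at 3.9 mM glucose. The log2 ratio was -0.87 (-0.89 to -0.85) at 11.1 mM and -0.02 at 3.9 mM glucose, with a difference of -0.84. Its vehicle library at 11.1 mM glucose was the high one, whereas that same library was the low one for Hspa5. The Ero1lb ratio at 11.1 mM glucose was also below 0 in delta-like (-0.55), stromal-like (-1.45), macrophage-like (-1.13) and endothelial-like cells (-0.68). The direction was thus seen in the summed UMIs of other classes too. Under vehicle at 11.1 mM glucose Ero1lb had 281 CPM in delta-like, 191 in stromal-like, 181 in macrophage-like and 130 in endothelial-like cells. Each class was scaled by itself. Whether RNA carried over from beta-like cells added to these sums, and why the classes shared the direction, was not tested.

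P4hb, a protein disulfide isomerase, had 495 CPM under imeglimin and 425 CPM under vehicle at 11.1 mM glucose, and 202 CPM under imeglimin and 266 CPM under vehicle at 3.9 mM glucose. Hyou1, an Hsp110-type chaperone, had 197 CPM under imeglimin and 178 CPM under vehicle at 11.1 mM glucose, and 88.1 CPM under imeglimin and 111 CPM under vehicle at 3.9 mM glucose. Pdia4, another disulfide isomerase, had 108 CPM under imeglimin and 78.2 CPM under vehicle at 11.1 mM glucose, and 66.0 CPM under imeglimin and 74.8 CPM under vehicle at 3.9 mM glucose. For P4hb and Hyou1 both libraries at 11.1 mM were above both at 3.9 mM glucose. Dnajc3, a cochaperone known as P58IPK, had 452 CPM under imeglimin and 348 CPM under vehicle at 11.1 mM glucose, and 325 CPM under imeglimin and 221 CPM under vehicle at 3.9 mM glucose. The remaining folding genes (the lectin chaperones Calr and Canx, the disulfide isomerases Pdia3 and Pdia6, the cochaperone Dnajb11 and the prolyl isomerase Fkbp2) stayed within 1.5-fold in all 4 comparisons, between Fkbp2 at -0.23 and Dnajb11 at 0.50 for imeglimin against vehicle at 11.1 mM glucose.

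**Figure D1:**
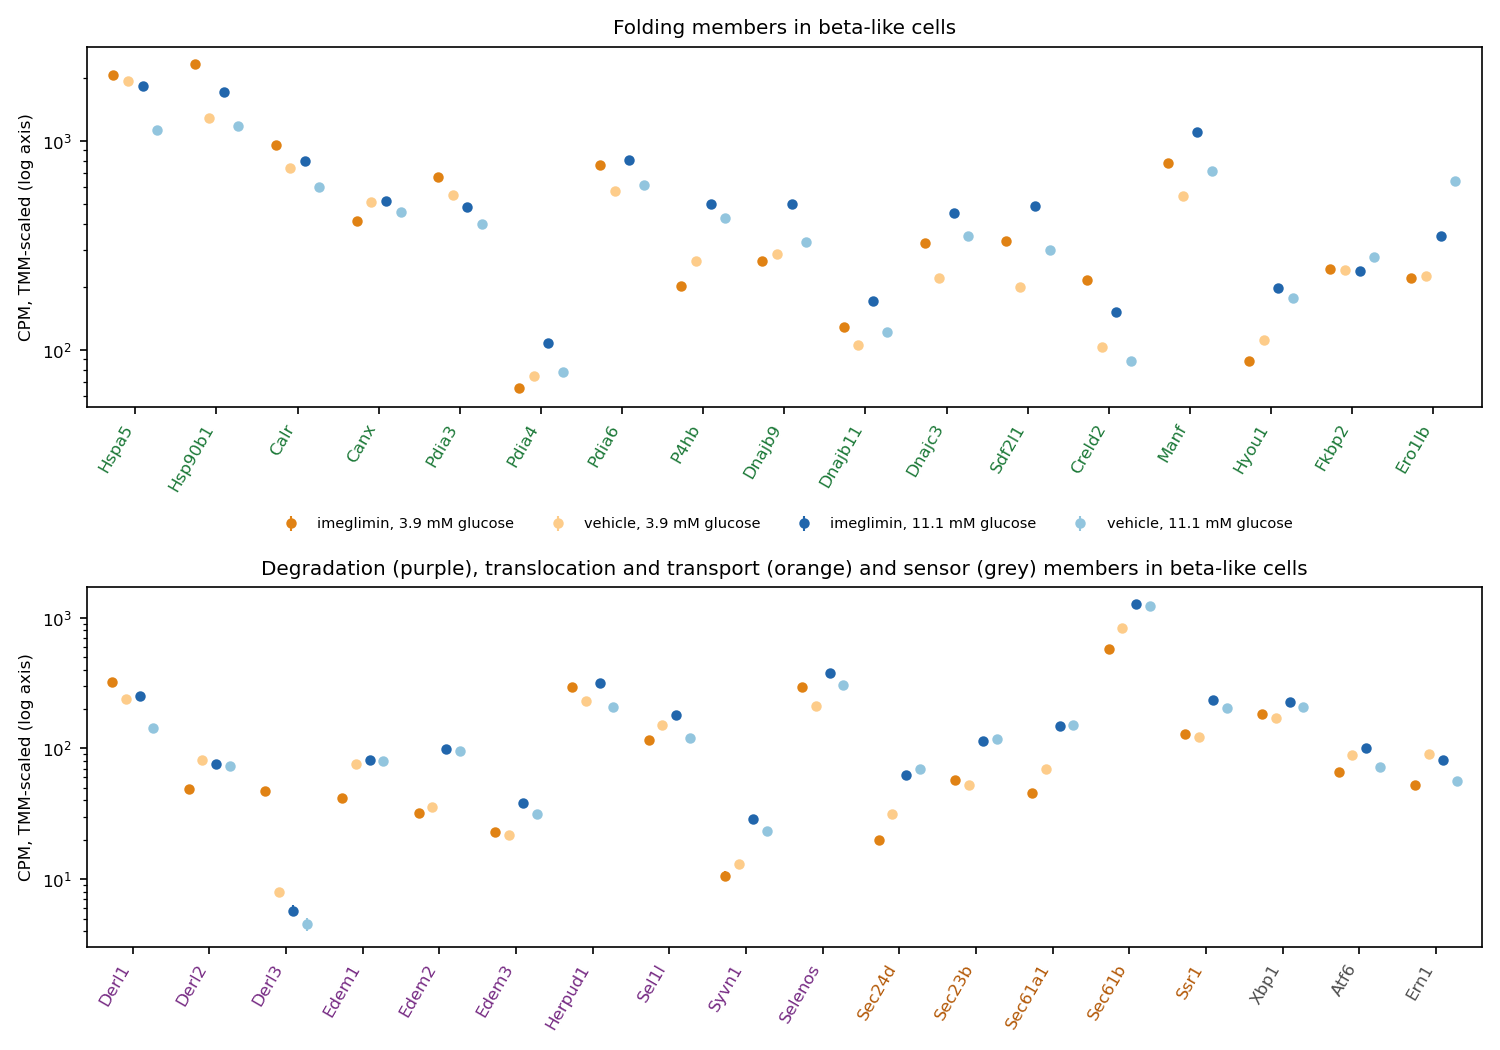
TMM-scaled CPM (log axis) of each member in beta-like cells of the 4 libraries, with counting intervals that are mostly smaller than the points; gene names are coloured by role. Hspa5 is low in the vehicle library at 11.1 mM glucose (1124 CPM), Ero1lb is high in it (642 CPM), and Derl3 stands out in the imeglimin library at 3.9 mM glucose (47.1 CPM).

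At 3.9 mM glucose the members' counts lay near those of all genes. Of 34 compared, 4 were at least 1.5-fold higher under imeglimin and 5 lower, against 12.3% of all 6003 genes higher and 10.4% lower. The members' median log2 ratio was 0.06, beside 0.10 for all genes. Higher were 3 of 17 folding genes (median 0.28), and 1 of 9 degradation genes (median 0.08, with 2 lower). The higher degradation gene was Derl3, which reached 20 CPM in the imeglimin library at 3.9 mM glucose only. Lower were 2 of 5 transport genes (median -0.53) and 1 of 3 sensors (median -0.43). On plain CPM, where the median of all genes shifted by -0.33, 2 members were higher and 11 lower, and the folding and degradation medians were -0.02 and -0.23.

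Derl3, a derlin of the ER membrane channel used in degradation, showed the largest ratio of any member. It had 5.75 CPM (402 UMIs) under imeglimin and 4.52 CPM (308 UMIs) under vehicle at 11.1 mM glucose, and 47.1 CPM (2474 UMIs) under imeglimin and 7.96 CPM (613 UMIs) under vehicle at 3.9 mM glucose. The imeglimin library at 3.9 mM glucose alone was high, with a log2 ratio to vehicle of 2.57 (2.44 to 2.70). A UMI of Derl3 was seen in 6.02% of beta-like cells under imeglimin and 5.25% under vehicle at 11.1 mM glucose, and in 29.1% under imeglimin and 10.4% under vehicle at 3.9 mM glucose, at median depths between 10137 UMIs under imeglimin at 3.9 mM and 13022 UMIs under vehicle at 11.1 mM glucose. With each cell thinned to 3000 UMIs the shares were 10.8% under imeglimin and 2.81% under vehicle at 3.9 mM glucose. At 3.9 mM glucose, alpha-like cells had it in 1.95% of cells under imeglimin (median 7049 UMIs) and 1.54% under vehicle (median 7612 UMIs). Macrophage-like cells had it in 8.28% under imeglimin (median 4355 UMIs) and 1.92% under vehicle (median 6607 UMIs). Delta-like cells had it in 10.1% under imeglimin (median 6873.5 UMIs) and 6.38% under vehicle (median 10210 UMIs). Delta-like cells had a log2 ratio of 1.92, on 101 imeglimin and 31 vehicle UMIs. Their levels, 16.1 CPM under imeglimin and 4.26 CPM under vehicle, lay under the 50 CPM needed for comparison in that class. Of those 101 UMIs, 34.7% lay in the 1% of cells with the most. With each delta-like cell thinned to 3000 UMIs the shares were 2.42% under imeglimin and 1.40% under vehicle. Whether delta-like cells shared the direction was not tested. Within 1 cluster, led by Snhg1, Snhg15, Mt2 and Derl3 itself, Derl3 had 49.7 CPM in 3844 imeglimin cells and 19.7 CPM in 150 vehicle cells at 3.9 mM glucose, on plain CPM. In the cluster that held most vehicle cells it had 4.54 CPM in 187 imeglimin cells and 9.11 CPM in 4196 vehicle cells. At that level 187 cells hold few Derl3 UMIs, and whether the direction differed between these clusters was not tested. With the 10% of cells highest in acinar markers left out, the log2 ratio at 3.9 mM glucose was 2.60.

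Of the other derlins, Derl1 was also highest in the imeglimin library at 3.9 mM glucose, at a smaller ratio to vehicle than Derl3. Derl2 was lowest in that library. Derl1 had 251 CPM under imeglimin and 143 CPM under vehicle at 11.1 mM glucose, and 319 CPM under imeglimin and 238 CPM under vehicle at 3.9 mM glucose (log2 0.81 and 0.43). Derl2 had 76.5 CPM under imeglimin and 73.2 CPM under vehicle at 11.1 mM glucose, and 48.8 CPM under imeglimin and 82.0 CPM under vehicle at 3.9 mM glucose (log2 0.06 and -0.75). Imeglimin libraries were therefore above vehicle libraries at each glucose level for Derl1, and below vehicle at 3.9 mM glucose for Derl2.

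The mannosidase-like EDEM proteins pick misfolded glycoproteins for disposal. Edem1 had 82.2 CPM under imeglimin and 80.5 CPM under vehicle at 11.1 mM glucose, and 42.0 CPM under imeglimin and 76.1 CPM under vehicle at 3.9 mM glucose, so the imeglimin library at 3.9 mM glucose was the low one (log2 -0.86). Edem2 had 99.3 CPM under imeglimin and 95.1 CPM under vehicle at 11.1 mM glucose, and 31.8 CPM under imeglimin and 35.9 CPM under vehicle at 3.9 mM glucose. Edem3 had 38.2 CPM under imeglimin and 31.6 CPM under vehicle at 11.1 mM glucose, and 22.9 CPM under imeglimin and 21.7 CPM under vehicle at 3.9 mM glucose. Edem2 and Edem3 thus separated by glucose, with both 11.1 mM libraries above both 3.9 mM libraries.

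The ubiquitin ligase of this pathway is built from Syvn1 (HRD1, the ligase), Sel1l (its partner) and Herpud1 (an adaptor). Herpud1 had 315 CPM under imeglimin and 209 CPM under vehicle at 11.1 mM glucose, and 294 CPM under imeglimin and 230 CPM under vehicle at 3.9 mM glucose (log2 0.59 and 0.35). Sel1l had 180 CPM under imeglimin and 120 CPM under vehicle at 11.1 mM glucose, and 117 CPM under imeglimin and 151 CPM under vehicle at 3.9 mM glucose (log2 0.58 and -0.38), a difference of 0.96. Herpud1 was above vehicle at each glucose level and Sel1l at 11.1 mM only. Syvn1 had 29.1 CPM under imeglimin and 23.2 CPM under vehicle at 11.1 mM glucose, and 10.6 CPM under imeglimin and 13.1 CPM under vehicle at 3.9 mM glucose. The selenoprotein Selenos, which recruits the extraction machinery, stayed within 1.5-fold throughout, with 212 to 379 CPM over the 4 libraries.

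Transport genes separated by glucose more than by imeglimin. Sec61a1, the channel-forming subunit of the translocon, had 149 CPM under imeglimin and 150 CPM under vehicle at 11.1 mM glucose, and 46.0 CPM under imeglimin and 69.7 CPM under vehicle at 3.9 mM glucose. Sec61b, another translocon subunit, had 1273 CPM under imeglimin and 1237 CPM under vehicle at 11.1 mM glucose, and 578 CPM under imeglimin and 836 CPM under vehicle at 3.9 mM glucose. Both 11.1 mM libraries were nearly level with each other and above both 3.9 mM libraries. Sec24d, a cargo-binding subunit of the COPII vesicle coat, had 63.0 CPM under imeglimin and 69.2 CPM under vehicle at 11.1 mM glucose, and 19.99 CPM under imeglimin and 31.5 CPM under vehicle at 3.9 mM glucose. Sec23b, its coat partner, had 114 CPM under imeglimin and 119 CPM under vehicle at 11.1 mM glucose, and 57.0 CPM under imeglimin and 53.0 CPM under vehicle at 3.9 mM glucose. Ssr1, a subunit of the translocon-associated TRAP complex, had 235 CPM under imeglimin and 206 CPM under vehicle at 11.1 mM glucose, and 128 CPM under imeglimin and 123 CPM under vehicle at 3.9 mM glucose. All 5 transport genes were higher at 11.1 than at 3.9 mM glucose under either treatment.

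Sensor genes differed among themselves. Ern1 had 81.9 CPM under imeglimin and 56.5 CPM under vehicle at 11.1 mM glucose, and 52.3 CPM under imeglimin and 90.7 CPM under vehicle at 3.9 mM glucose. Atf6 had 101 CPM under imeglimin and 72.4 CPM under vehicle at 11.1 mM glucose, and 66.4 CPM under imeglimin and 89.4 CPM under vehicle at 3.9 mM glucose. For both genes imeglimin was above vehicle at 11.1 mM and below it at 3.9 mM glucose (Ern1 log2 0.54 and -0.79, Atf6 log2 0.48 and -0.43). Xbp1 had 225 CPM under imeglimin and 206 CPM under vehicle at 11.1 mM glucose, and 184 CPM under imeglimin and 170 CPM under vehicle at 3.9 mM glucose, and stayed within 1.5-fold in all 4 comparisons. Summed 3′ UMIs do not report Xbp1 splicing.

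**Figure D2:**
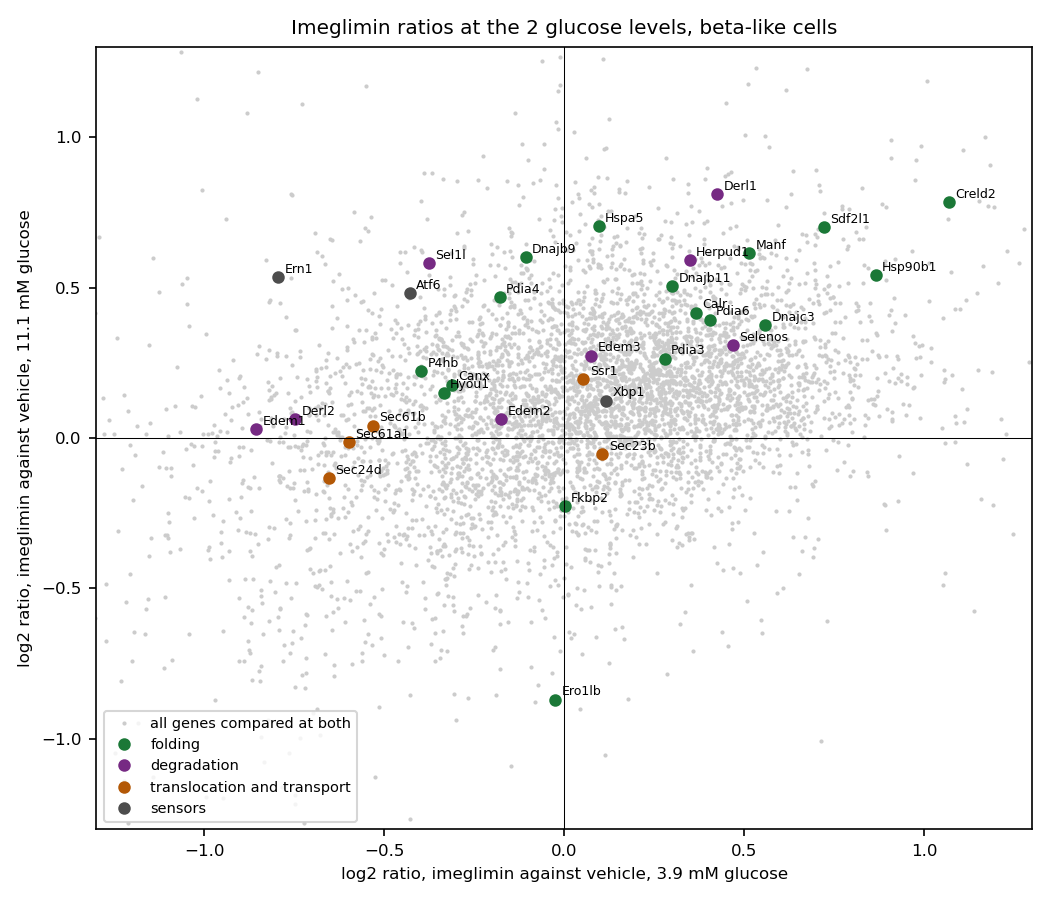
Log2 ratio of imeglimin to vehicle at 11.1 mM glucose (vertical) against that at 3.9 mM glucose (horizontal) in beta-like cells, with all genes compared at both in grey and members coloured by role. Creld2, Hsp90b1 and Sdf2l1 lie high on both axes, Ern1, Atf6 and Sel1l are above 0 on the vertical and below 0 on the horizontal axis, and Ero1lb lies at -0.87 on the vertical axis; Derl3 and Syvn1 are not shown because at 1 glucose level they did not reach 20 CPM.

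Glucose itself went with higher levels of more members. Under imeglimin, 18 of 35 were at least 1.5-fold higher at 11.1 than at 3.9 mM glucose and 1 lower, against 15.4% and 23.3% of all 6052 genes. Under vehicle, 10 of 34 were higher and 3 lower, against 9.83% and 20.2% of all 5902 genes. These comparisons share libraries with those above, so their values are set side by side only. Transport genes had medians of 1.14 under imeglimin (5 of 5 higher) and 1.11 under vehicle (4 of 5 higher), folding genes 0.41 (5 of 17 higher) and 0.18 (4 of 17 higher, 1 lower). The lower members were Derl3 under imeglimin (log2 -3.03), and Hspa5 (-0.78), Derl1 (-0.73) and Ern1 (-0.68) under vehicle. Derl3 reached 20 CPM only in the imeglimin library at 3.9 mM glucose, and Syvn1 only at 11.1 mM. Each was thus compared only through libraries where it was high. On plain CPM, where the median of all genes also shifted down under vehicle, 5 members were higher and 8 lower under vehicle. Folding and degradation medians there were -0.21 and -0.31, and 4 members were lower under imeglimin. Without the cluster led by Ero1l and Bnip3, 4 were lower under imeglimin. These counts are not set beside the share of all genes in the same setting, so whether they were particular to the members was not tested.

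**Figure D3:**
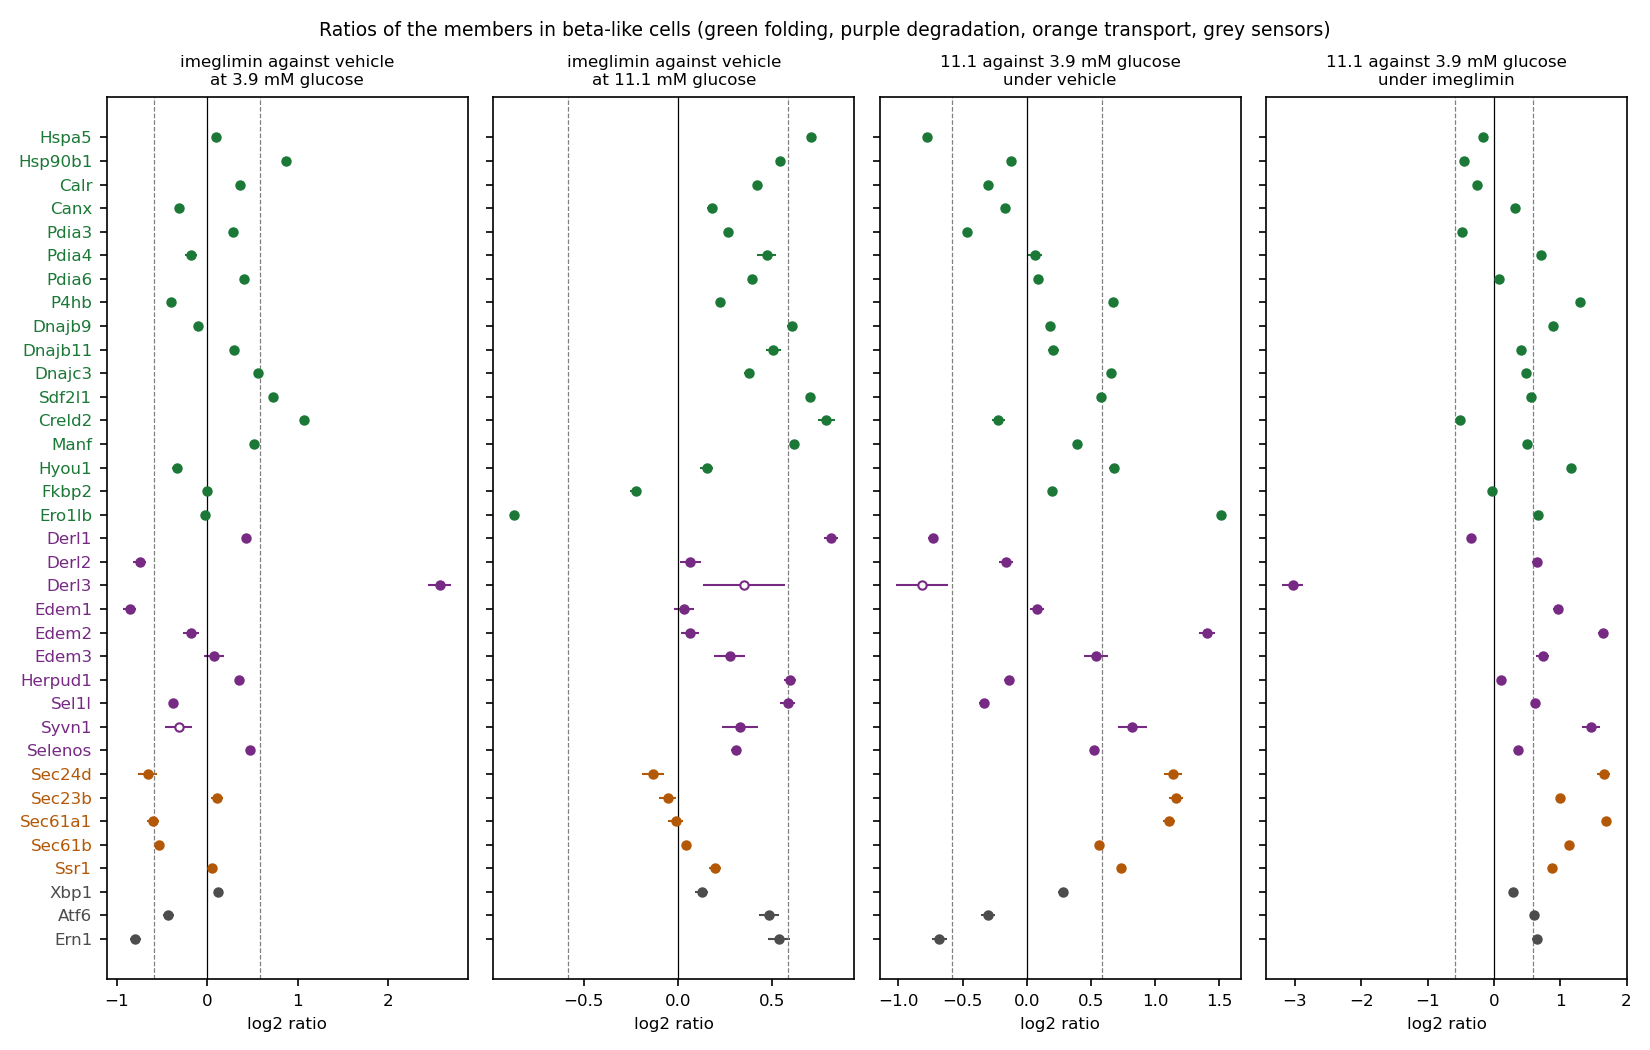
Log2 ratio (horizontal, with 95% counting interval; axis ranges differ between panels) of each member in beta-like cells for the 4 comparisons; dashed lines mark 1.5-fold, and open points are members under 20 CPM in both libraries. Transport genes (orange) lie right of the upper dashed line in both glucose panels, apart from Sec61b under vehicle (0.57), and between -0.65 and 0.20 in the imeglimin panels.

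Members with ERSE or ERSE-II had a median log2 ratio of imeglimin to vehicle of 0.42 at 11.1 mM glucose (11 compared) and 0.37 at 3.9 mM (11 compared), beside 0.21 and -0.14 for the 18 members with a window and neither element. The 11 were not the same genes, since Syvn1 was compared at 11.1 mM only and Derl3 at 3.9 mM only. Derl3 was compared there only through the imeglimin library, where it was high. For 11.1 against 3.9 mM glucose under imeglimin the medians were 0.09 with and 0.73 without an element. Other genes with an element gave medians of 0.19 (6 compared) and 0.09 (7 compared) for imeglimin at 11.1 and 3.9 mM glucose. Among folding genes alone, the median at 11.1 mM glucose was 0.42 for the 9 with an element and 0.37 for the 6 without, and at 3.9 mM glucose it was 0.37 with and -0.05 without. The ranges with and without an element overlapped at each glucose level, from -0.87 to 0.79 with and from -0.23 to 0.70 without at 11.1 mM, and from -0.31 to 1.07 with and from -0.40 to 0.72 without at 3.9 mM glucose.

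Of 103 other genes of the pathway, 96 were compared for imeglimin at 11.1 mM glucose. The 2 that were at least 1.5-fold higher, with 0 lower, were the degradation genes Erlin1 (log2 0.85) and Aup1 (0.62). Of all genes compared, 5.81% were higher and 4.25% lower. At 3.9 mM glucose 7 of 94 were higher and 13 lower, beside 12.3% and 10.4% of all genes compared. The largest ratios were those of Sar1a (1.15), a GTPase of the COPII coat, and Ube2j2 (0.99), a ubiquitin-conjugating enzyme, and on the low side those of Ero1l (-1.04), an ER oxidase, and Ganab (-0.96), a glucosidase subunit. Other folding and glycosylation genes had 1 of 27 higher and 7 lower (median -0.37). For 11.1 against 3.9 mM glucose under imeglimin, 41 of 95 were higher and 4 lower, beside 15.4% and 23.3% of all genes compared. Under vehicle 23 of 95 were higher and 4 lower, beside 9.83% and 20.2%. Ero1l (log2 2.36), Ganab (1.48), Dnajc10 (1.47) and Txndc11 (1.42) led under imeglimin. Bhlha15 (1.67), Fkbp11 (1.63), Erlin1 (-1.39) and Surf4 (1.12) led under vehicle.

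Within each library, cells with more Hspa5 also had more of many other members, with folding genes in the lead. Over 4314 to 5397 beta-like cells per library thinned to 3000 UMIs, Manf, Pdia6, Hsp90b1, Sdf2l1 and Calr ranked among the 7 genes with the highest Pearson r with Hspa5, out of 5099 to 6258 genes ranked. Manf had r of 0.36 under imeglimin and 0.25 under vehicle at 11.1 mM glucose, and 0.31 under imeglimin and 0.27 under vehicle at 3.9 mM glucose. The degradation gene Selenos ranked 5 under imeglimin at 3.9 mM glucose (r 0.17). The folding gene Ero1lb had r of 0.11 under imeglimin at 11.1 mM glucose and -0.04 under vehicle at 3.9 mM glucose, where it ranked 6178. Ern1 was near 0 in every library (r between -0.01 and 0.02), as was the median gene. The cells of a comparison share a library, and their UMI counts per gene differ between members, so r is given as a description. Inside the largest beta-like cluster of each library, Manf had r of 0.34 under imeglimin and 0.24 under vehicle at 11.1 mM glucose, and 0.31 under imeglimin and 0.26 under vehicle at 3.9 mM glucose.

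**Figure D4:**
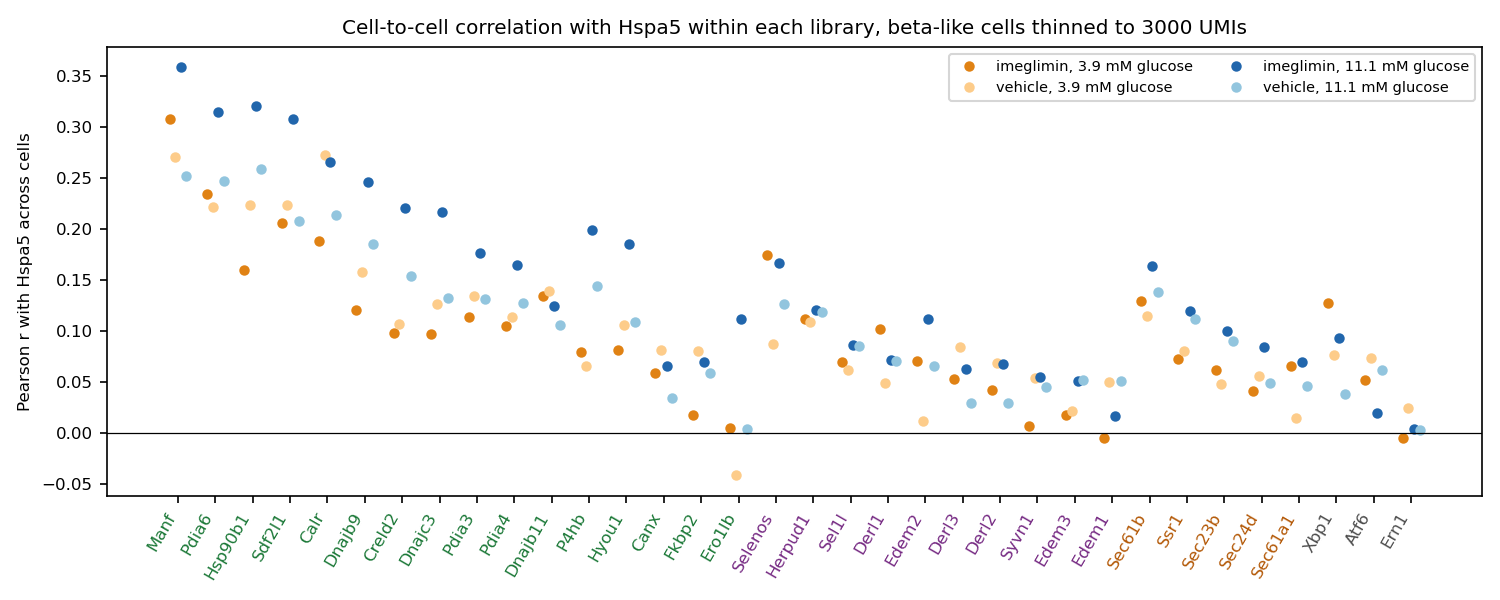
Pearson correlation with Hspa5 across beta-like cells of each library (vertical) for every other member, by role and in falling order of the mean. Folding genes Manf, Pdia6, Hsp90b1, Sdf2l1 and Calr lead, and Ern1 lies near 0.

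Members took a median of 1.15% of a beta-like cell's UMIs under imeglimin and 0.972% under vehicle at 11.1 mM glucose, and 1.14% under imeglimin and 1.23% under vehicle at 3.9 mM glucose. Transport members took 0.157% under imeglimin and 0.158% under vehicle at 11.1 mM glucose, and 0.0768% under imeglimin and 0.131% under vehicle at 3.9 mM glucose. These shares include the hormone UMIs in the total.

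Across cell classes, on a scale that leaves out hormone and mitochondrial genes, Hspa5 averaged 2615 CPM in beta-like, 2225 in delta-like, 1640 in stromal-like, 1578 in pancreatic polypeptide (pp)-like, 1134 in macrophage-like, 1042 in endothelial-like and 937 in alpha-like cells over the 4 libraries. Its beta-like range, 1941 to 2931 CPM, overlapped that of delta-like cells, 1749 to 2508 CPM, and lay above that of alpha-like cells, 847 to 1038 CPM. Ero1lb averaged 571 CPM in beta-like and 89.9 CPM in alpha-like cells. Edem1 averaged 109 CPM in beta-like and 17.4 CPM in alpha-like cells, whereas Xbp1 averaged 301 CPM in beta-like and 253 CPM in alpha-like cells.

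**Figure D5:**
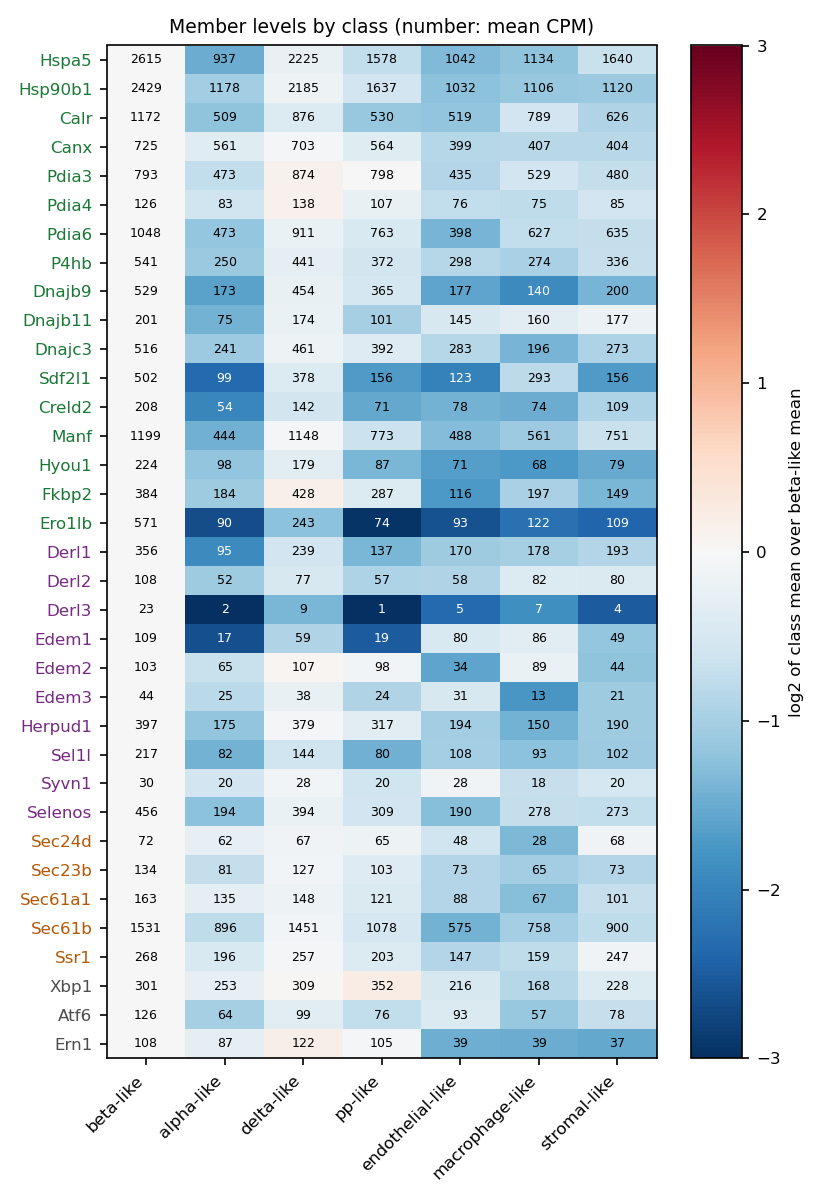
Mean CPM of each member over the 4 libraries by cell class (numbers), on the scale without hormone and mitochondrial genes, coloured by the log2 of the class mean over the beta-like mean. Within the alpha-like column the darkest blue is at Derl3, Ero1lb and Edem1 (17.4 CPM against 109 CPM in beta-like cells), and Xbp1 is pale in all endocrine classes.

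Alpha-like cells of the treatments lay mostly in different clusters. The cluster led by Ttr and Gcg held 794 of the 852 alpha-like cells under imeglimin and 93 of the 648 under vehicle at 11.1 mM glucose, and 1011 of 1025 under imeglimin and 46 of 651 under vehicle at 3.9 mM glucose, and another cluster held the others. With clusters drawn at Leiden resolution 0.5 the imeglimin cluster could not be named, which left 43 alpha-like cells under imeglimin and 767 under vehicle at 11.1 mM glucose, and 20 under imeglimin and 831 under vehicle at 3.9 mM glucose. Cluster and treatment therefore cannot be told apart in alpha-like cells.

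In alpha-like cells, 0 of 29 members compared were at least 1.5-fold apart between imeglimin and vehicle at 11.1 mM glucose, against 6.06% of genes higher and 4.47% lower. The 3 highest were Derl1 (73.4 CPM under imeglimin and 51.5 CPM under vehicle, log2 0.51), Atf6 (0.49) and Sdf2l1 (0.43), and the 3 lowest Fkbp2 (-0.54), Sec61b (-0.42) and Ero1lb (-0.38). At 3.9 mM glucose 4 were higher and 2 lower, against 13.2% and 6.96% of genes. Derl1 had 113 CPM under imeglimin and 56.4 CPM under vehicle (log2 1.00), Herpud1 had 185 CPM under imeglimin and 102 CPM under vehicle (0.86), and Ern1 had 92.8 CPM under imeglimin and 57.8 CPM under vehicle (0.68), and the 3 lowest were Fkbp2 (-0.70), Sec61b (-0.66) and Sec24d (-0.47). Ern1 was above vehicle here and below it in beta-like cells at 3.9 mM glucose, a difference between classes that was not tested. With the 20 imeglimin cells left at Leiden resolution 0.5, Derl1 (-0.82), Atf6 (-0.53) and Ern1 (-0.10) were below vehicle, and 0 members were at least 1.5-fold higher and 14 of 31 lower. At 11.1 mM glucose that clustering gave 0 higher and 16 of 31 lower. The shares of all genes in that clustering are not set beside these counts, so they are not read as particular to the members. For 11.1 against 3.9 mM glucose, 0 of 27 alpha-like members were higher and 1 was lower (Derl1, log2 -0.62) under imeglimin, and 0 of 28 were higher or lower under vehicle, beside 2.08% and 3.15%, and 1.03% and 0.333%, of all genes.

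In delta-like cells Derl1 was the 1 of 31 members at least 1.5-fold higher under imeglimin at 11.1 mM glucose, with 188 CPM under imeglimin and 106 CPM under vehicle (log2 0.83), against 3.36% of genes, and 0 were lower, against 3.3%. Hspa5 (0.54) and Dnajb9 (0.52) followed, and Fkbp2 (-0.58), Ero1lb (-0.55) and Sec23b (-0.15) were lowest. At 3.9 mM glucose 2 of 31 were lower, Edem1 with 23.9 CPM under imeglimin and 51.5 CPM under vehicle (log2 -1.11) and Fkbp2 (-0.66), against 5.28% of genes, and 0 were higher, against 4.44%. Hyou1 (-0.46) was the next lowest, and Dnajb11 (0.51), Creld2 (0.46) and Sdf2l1 (0.40) were highest. Edem1 reached 50 CPM in the vehicle library at 3.9 mM glucose only. For 11.1 against 3.9 mM glucose, 9 of 31 members were higher and 0 lower under imeglimin, against 8.48% and 7.3% of genes, and 5 of 32 were higher and 1 lower under vehicle, against 5.44% and 6.51%. Transport genes made up 5 of those 9 and 3 of those 5.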

How the data were processed

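The 4 matrices hold UMI counts per gene and cell barcode, as deposited by the authors, who used Cell Ranger 6.0.2 with mm10 per the submitters' processing notes. Kept barcodes had at least 1000 UMIs, 500 genes and at most 20% mitochondrial UMIs (8427, 7444, 8755 and 7166 cells in the imeglimin 11.1 mM, vehicle 11.1 mM, imeglimin 3.9 mM and vehicle 3.9 mM libraries). The doublet caller called 0 cells in each library, so it did not work; an alternative leaves out the highest scores. Cells were clustered with scanpy 1.11.5 (2000 variable genes without the members, 30 components, 15 neighbours, Leiden resolution 1) and clusters named from marker genes as "X-like". Class sums were scaled by TMM (edgeR 4.0.16) to CPM, and a gene was compared at 20 CPM (beta-like) or 50 CPM (alpha- and delta-like) in either library. Intervals are exact conditional binomial (95%). The ratios and intervals were run on sums simulated with known folds and counting error alone, which is the error the intervals assume. That check cannot speak to spread between cells or libraries. The members, lists and naming rule (members at least 1.5-fold apart in any comparison, and Hspa5, Xbp1, Atf6, Ern1, Derl3, Herpud1 and Syvn1) were chosen with earlier results of these data known. Gene positions use GRCm38 annotation. No other deposited columns of samples were present. Alternatives were the scalings (plain CPM, DESeq2 1.42.0 size factors, CPM without hormone and mitochondrial genes), per-cell means, filters, thinning, clustering, and left-out cells; the alternative without the cluster led by hypoxia genes was chosen after seeing the data.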

Additional observations from a re-analysis of the deposited data

Results flagged for a closer look

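For 12 members the imeglimin ratio in beta-like cells pointed in opposite directions at the glucose levels, with counting intervals away from 0 at each. The log2 ratio at 11.1 mM minus that at 3.9 mM glucose was 0.49 for Canx, 0.65 for Pdia4, 0.62 for P4hb, 0.71 for Dnajb9 and 0.49 for Hyou1 among folding genes. It was 0.81 for Derl2, 0.24 for Edem2 and 0.96 for Sel1l among degradation genes, -0.16 for Sec23b and 0.57 for Sec61b among transport genes, and 0.91 for Atf6 and 1.33 for Ern1 among sensors. Of the 12, 3 (Dnajb9, Derl2 and Ern1) were at least 1.5-fold apart at either glucose level. The directions were opposite for 10 of the 12 on plain CPM, for 12 with DESeq2 size factors, and for 6 (Pdia4, P4hb, Dnajb9, Sel1l, Atf6 and Ern1) on CPM without hormone and mitochondrial genes. With 1 library per condition these differences were not tested against replicate spread.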

How the results depend on the processing

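No paired analysis was possible because each condition is 1 library. In beta-like cells none of the members at least 1.5-fold apart changed sign under any of the 13 alternatives, and in delta-like cells none did under the 9 that gave a value; Leiden resolution 0.5 named no delta-like cells, and the settings that leave out acinar, heat-shock or hypoxia cells were run for beta-like cells only. In alpha-like cells 3 of 7 results reversed, all for imeglimin against vehicle at 3.9 mM glucose: Derl1 was 1.00, against -0.0146 with clusters drawn with the members and -0.82 at Leiden resolution 0.5, Atf6 was 0.68, against -1.41 and -0.53 in those settings, and Ern1 was 0.68, against -0.10 at Leiden resolution 0.5. Those settings left 31 and 20 imeglimin alpha-like cells. The count of members at least 1.5-fold higher under imeglimin at 11.1 mM glucose was 7 in the chosen setting and 4 with plain CPM, DESeq2 size factors, thinning to 3000 UMIs, deep cells (10000 UMIs or more, mitochondrial share up to 5%), or the highest acinar shares left out; it was 3 with per-cell means, centred on the median gene, or without the cluster led by hypoxia genes, and 2 on CPM without hormone and mitochondrial genes. At 3.9 mM glucose plain CPM gave 2 higher and 11 lower members. For 11.1 against 3.9 mM glucose under vehicle it gave 5 higher and 8 lower, whereas CPM without hormone and mitochondrial genes and per-cell means gave 1 lower. Under imeglimin plain CPM, and leaving out the hypoxia cluster, gave 4 lower. Plain CPM shifts the median of all genes by -0.41 in the glucose comparison under vehicle. Counts under the alternatives are not set beside the share of all genes in the same setting, so whether they were particular to the members was not tested. The cause of these shifts in count was not tested. Depth limits Derl3 at 11.1 mM glucose, which rests on 402 UMIs under imeglimin and 308 UMIs under vehicle.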
